A study of Mus musculus with 35 samples.

Results

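Cytochrome P450 genes of families 1 to 5 were described in resident memory T cells, circulating memory T cells and the whole organs from which they came. The set was every gene on the array whose mouse symbol begins with Cyp, a family digit from 1 to 5 and a subfamily letter, and it was chosen by name, not by its values. It held 79 of the 20886 genes named on the array: 3 of family 1, 46 of family 2, 8 of family 3 and 22 of family 4. No symbol of family 5 matched, since the mouse gene for thromboxane synthase, the single member of that family, is called Tbxas1. Pseudogenes made up 3 of the 79. Where several probes matched a gene, the one with the highest mean over all arrays stood for it, and 16 of the 79 had 2 or more probes.

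All groups came from healthy wild type female mice of the strain C57Bl/6, aged 8 to 16 weeks. Resident memory CD8+ T cells (Trm) came from liver (5 arrays), lung (6 arrays) and small intestine (6 arrays). After dissociation and a Percoll gradient, beads selected CD8b-positive cells and, from these, the CD103-positive ones, CD103 being an integrin chain with E-cadherin as its ligand. Circulating effector memory cells (Tem, 6 arrays) were CD8b-positive cells from the blood of those animals, left after removal of CD62L-positive cells. Unsorted liver, lung and intestine and blood mononuclear cells (PBMC), called whole here, with 3 arrays each, served in the study as a control for parenchymal cells carried over into the sorted samples. Selection was on magnetic beads, RNA was of picogram amounts, and it was amplified in 2 rounds. No label ties an array to an animal, and the p-values therefore reflect array-to-array spread only, which may in part be technical.

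P450 enzymes are haem proteins of the endoplasmic reticulum that insert an oxygen atom into their substrate, with electrons passed to them by the reductase encoded by Por. Members of families 1 to 3 oxidise drugs, dietary compounds, steroids and environmental chemicals, and many of family 4 hydroxylate fatty acids and eicosanoids. Hepatocytes hold most of them, with a gradient along the lobule that puts enzymes such as Cyp2e1 near the central vein and Cyp2f2 near the portal tract. Club cells of the airway and enterocytes hold smaller sets of their own, and lymphocytes few.

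Values are called levels here: log2 of the background-subtracted intensity of a probe, minus the 75th percentile of its array. A level of 0 is thus the 75th percentile of 1341 probes bright on every array, and a difference of 1 is a 2-fold change. Levels compare arrays for 1 probe and not different probes with each other. A probe was counted as detected where the scanner software marked it well above background. Detected members numbered 40 to 60 per array in whole liver, 29 to 40 in whole intestine, 12 to 18 in whole lung and 2 to 6 in whole PBMC. Among sorted cells they numbered 9 to 29 in liver Trm, 4 to 13 in lung Trm, 1 to 10 in intestine Trm and 3 to 12 in Tem. Of the 79, 12 were detected on no array, 48 reached 3 detected arrays in some group and were tested, and 19 lay between. Genes were tested with limma in 1 fit over 35 arrays and 10533 genes, and called at a Benjamini-Hochberg adjusted p under 0.05. Liver Trm 3, Tem 3, whole liver 2 and whole PBMC 1 stood apart from their groups in the share of detected probes or the median level. Of the members, 17 were detected on whole liver 2 and on no other whole liver array, and 9 on whole intestine 3 alone of its group. T cell marker genes were detected in sorted cells as labelled, 10 of 11 on at least 3 arrays of each sorted group.

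The first question was which members the whole organs held, since these arrays were the study's measure of what tissue cells contribute. On all 3 arrays of an organ, 40 members were detected in whole liver, 28 in whole intestine and 12 in whole lung, and 6 in all of these organs. Liver had 10 members detected on its 3 arrays and on none of the other organs, intestine 2 and lung none. Liver and intestine shared 14 that were not detected on all lung arrays. Against whole lung, 38 members were called higher in whole liver, where 10.9% of all genes tested were, and 3 were called lower, where 11.9% of all genes were. Detected on at least 3 arrays of the brighter group were 37 of the 38, against 9.42% of all genes. Between whole liver and whole intestine 27 were called higher in liver and 8 lower, beside 16.5% and 14% of all genes. From whole lung to whole intestine 26 were higher (12.7% of all genes) and 2 lower (11.9%), with 21 of the 26 detected on the brighter side (12%). A gene passes the filter through the group where it is bright, so these counts describe the 48 tested and are no test of the set.

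Cyp2e1, which oxidises ethanol and other small molecules, had levels of 0.75, 0.64 and 0.79 on the whole liver arrays. Its levels were −6.83, −6.30 and −2.97 in whole intestine, the third array standing above the others, and −7.39 to −5.99 in whole lung, so that neither organ overlapped with liver. Cyp2c70, which makes the muricholic bile acids of mice, stood at 0.27, 0.08 and 0.16 in whole liver. It was not detected in the other organs, and was at least 158-fold higher in whole liver than in whole lung (difference 9.37, SE 0.97). "At least" marks a bound here and below: the dim group was below background, and the fold was taken against the dimmest signal still detected. Cyp2a12, a steroid hydroxylase, was at 0.12, −0.25 and 0.09 in whole liver and at least 139-fold higher than in whole lung. Cyp2a4, which hydroxylates testosterone, was at 0.09, 0.11 and 0.08 in whole liver, and its whole lung levels of −4.17, −4.31 and −5.46 were lower but detected on every array. In whole intestine Cyp2a4 was not detected, at least 165-fold below liver.

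A second group was shared by liver and intestine. Cyp2d26, of the subfamily that in humans metabolises many drugs, had levels of 0.61, 0.63 and 0.67 in whole liver and 0.36, 0.29 and 1.30 in whole intestine. The ranges of these organs overlapped, the difference was −0.01 (SE 0.69, adjusted p 0.994), and both lay above whole lung, where 2 of 3 arrays detected Cyp2d26. Cyp4f14, an eicosanoid and fatty acid omega-hydroxylase, had levels of 0.03, −0.01 and 0.94 in whole intestine against −0.81, −1.16 and −0.80 in whole liver, and was not detected in whole lung. The fold of Cyp4f14 between whole intestine and whole lung was at least 175 (difference 8.34, SE 0.71). Cyp3a25, of the subfamily that oxidises steroids and many drugs, ran from −2.13 to −0.10 in whole intestine and from −2.45 to −1.95 in whole liver, and these ranges overlapped.

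The members higher in intestine than in liver included enzymes of the gut epithelium. Cyp2c65, an arachidonic acid oxidase of the gut, had levels of −2.53, −2.63 and −0.71 in whole intestine and was not detected in the other organs, at least 23.2-fold lower in liver. Cyp2c66, its neighbour in the subfamily, was at −1.77, −1.64 and −0.13 in whole intestine and at least 39.8-fold lower in whole liver (difference −7.11, SE 0.49). Cyp3a13 was at −1.71, −1.59 and −0.37 in whole intestine, −4.42, −4.20 and −4.11 in whole liver, and not detected in lung, with no overlap between the organs. Cyp2b10, which the nuclear receptor CAR induces, was at −0.48, −0.39 and 0.78 in whole intestine and at −2.97, −2.25 and −2.37 in whole liver (adjusted p 0.0447 for the difference). That call was lost with any 1 of the 6 arrays left out. Its whole lung levels of −0.75, −1.05 and −0.93 lay between, without a call against either organ.

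Whole lung shared its leading members with one of the other organs. Cyp2f2, the club cell enzyme that activates naphthalene, was at 0.37, 0.27 and −0.07 in whole lung and at −0.26, −0.61 and −0.24 in whole liver. The difference between these organs was −0.56 (SE 1.56, adjusted p 0.876), while that of whole intestine from whole lung was −8.86 (SE 1.56, adjusted p 3.3e-05). Cyp4b1, which activates 4-ipomeanol in the airway, was at −1.76, −1.96 and −1.65 in whole lung and at −3.56, −3.30 and −0.65 in whole intestine, the third intestinal array lying above all lung arrays. Cyp2s1, an enzyme of surface epithelia, was at −1.48, −1.64 and −1.85 in whole lung and −2.15, −2.31 and −1.19 in whole intestine, and not detected in whole liver, at least 28.5-fold lower (difference −6.35, SE 0.75).

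**Figure D1:**
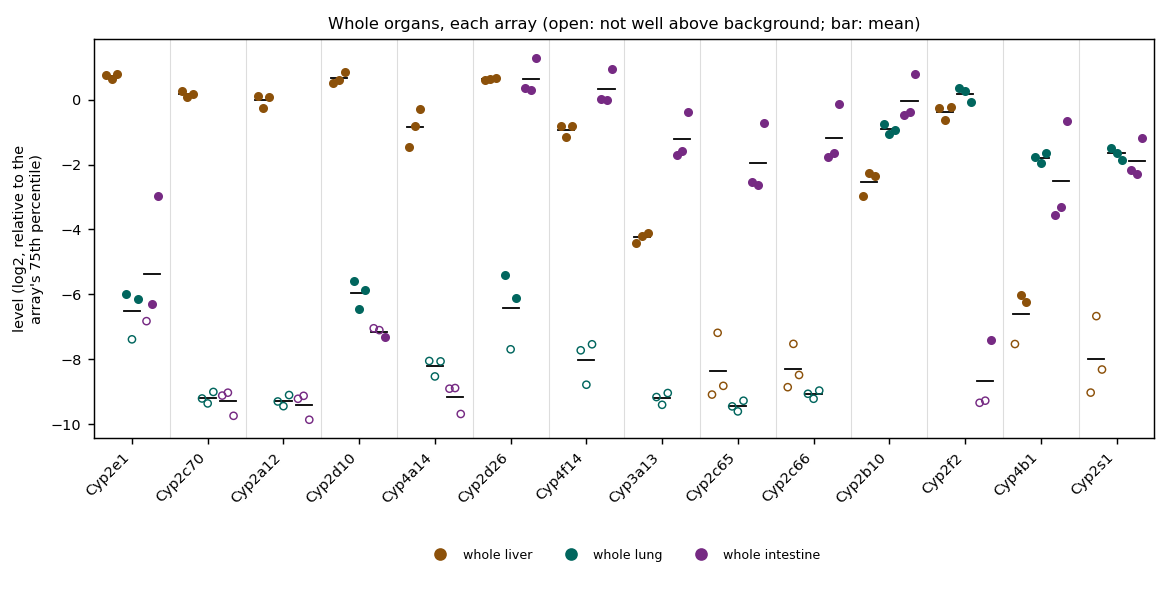
Levels of 14 members (log2, relative to the 75th percentile of the array) on each array of whole liver, whole lung and whole intestine; open points were not well above background and bars are means. Cyp2e1, Cyp2c70, Cyp2a12 and Cyp2d10 are high in liver alone, Cyp2c65 and Cyp2c66 in intestine alone, and Cyp2f2 in liver and lung.

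The third array of whole intestine stood above the other arrays of its group for several members. Cyp2c29, a pericentral liver enzyme, was at −3.76 there and at −8.51 and −8.95 on the others, where it was not detected. Cyp3a41b was at −2.67 there against −7.10 and −7.95, and Cyp2d11 at 0.04 against −2.87 and −3.20. Albumin (Alb) was not detected on any whole intestine array, while 7 of 22 hepatocyte markers were detected on all 3. Probes detected made up 40.7% on whole intestine 3, against 31.3% and 29.3% on arrays 1 and 2. The summed level of enterocyte markers ran from 3.89 through a median of 3.97 to 5.22 over the whole intestine arrays. The cause of these differences was not tested.

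The mice were female, and members given in textbooks as sex-biased in mouse liver were looked up. Without a male group, their detection shows no difference between the sexes. Of all 79 members, 40 were detected on every whole liver array. Of 7 members on the array that textbooks give as higher in female liver, 5 were detected on all whole liver arrays: Cyp2a4, Cyp2b10, Cyp2b13, Cyp3a16 and Cyp3a41b. Cyp3a44 was detected on none and Cyp2b9 on 1 of 3. Of the 3 given as higher in males, Cyp4a12a and Cyp4a12b were detected on no whole liver array, and Cyp2d9 on 2 of 3, at −7.20, −4.11 and −6.08. Cyp2b13, of the female-predominant pair, stood at −2.27, −1.60 and −1.37 in whole liver, and Cyp2b9 at −8.88, −4.79 and −8.34, with whole liver 2 as its single detected array. The 250 bases before the start of these neighbours on chromosome 7 are shown because they are 99.2% identical while their detection differed; capitals mark the 2 differences, C48T and T104C, counted from 1 at the 5′ end with the Cyp2b13 base first. The sequences are from RefSeq on GRCm38.p6, both on the plus strand, at chr7:26061245-26061494 for Cyp2b13 and chr7:26173159-26173408 for Cyp2b9.
Cyp2b13: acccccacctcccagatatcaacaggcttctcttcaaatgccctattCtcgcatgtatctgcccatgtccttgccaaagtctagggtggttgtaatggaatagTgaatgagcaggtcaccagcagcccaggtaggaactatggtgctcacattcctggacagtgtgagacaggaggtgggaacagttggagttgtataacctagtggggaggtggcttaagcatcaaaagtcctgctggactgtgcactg
Cyp2b9: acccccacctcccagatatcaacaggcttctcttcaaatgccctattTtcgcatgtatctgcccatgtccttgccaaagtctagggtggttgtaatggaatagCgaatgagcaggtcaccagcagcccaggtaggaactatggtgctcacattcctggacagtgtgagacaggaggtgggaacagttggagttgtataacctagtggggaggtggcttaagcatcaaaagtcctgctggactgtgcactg
A probe can also bind the transcripts of such close relatives, and the sequences of the probes were not used here, so members of the Cyp2a, Cyp2b, Cyp2c, Cyp2d, Cyp3a and Cyp4a clusters are uncertain one by one. Over 153 pairs of promoters within a subfamily, 6 were at least 90% identical, among them Cyp3a25 with Cyp3a59 (95.2%) and Cyp3a41b with Cyp3a44 (94.8%).

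Probes of 1 gene did not always give the same picture. Of 20 further probes to members, 6 correlated at 0.8 or more with the probe used, over 35 arrays that share group and array effects, and 5 were detected on no array. Cyp3a11, the main drug-metabolising enzyme of its subfamily in mouse liver, had a mean level of −3.83 in whole liver by the probe with the highest overall mean. A second Cyp3a11 probe gave 0.72 in whole liver and 0.06 in whole intestine, where the first gave −5.73. On the second probe liver Trm averaged −4.99 and Tem −8.93. For Cyp2e1 the second probe, detected on 3 arrays in all, averaged −2.21 in whole liver, −7.88 in liver Trm and −8.84 in Tem. Its difference between liver Trm and Tem was thus near the shift of undetected probes given below, so the liver Trm values of Cyp2e1 rest on the probe used.

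Promoters of 61 of the 79 members were found in RefSeq, as 68 windows of 250 bases. Promoters of Cyp2e1, Cyp2d26 and Cyp2c65 are shown because their genes are, in turn, a liver member, a member of liver and intestine and a member of intestine in these data. Capitals mark TATAAA or its reverse complement TTTATA, and in Cyp2c65 also CAAAGTCCA, a form of the element bound by HNF4A. Cyp2e1 lies at chr7:140763569-140763818 on the plus strand, Cyp2d26 at chr15:82794246-82794495 on the minus strand and Cyp2c65 at chr19:39060756-39061005 on the plus strand, all on GRCm38.p6.
Cyp2e1: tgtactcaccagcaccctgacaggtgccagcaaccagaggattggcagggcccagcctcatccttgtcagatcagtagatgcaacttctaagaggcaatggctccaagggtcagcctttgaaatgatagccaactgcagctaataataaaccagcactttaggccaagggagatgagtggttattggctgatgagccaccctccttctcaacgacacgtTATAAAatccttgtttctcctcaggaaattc
Cyp2d26: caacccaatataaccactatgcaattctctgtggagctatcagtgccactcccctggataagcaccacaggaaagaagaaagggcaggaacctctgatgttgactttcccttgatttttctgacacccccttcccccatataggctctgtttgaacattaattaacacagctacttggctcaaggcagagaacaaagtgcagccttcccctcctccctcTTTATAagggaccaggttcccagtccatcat
Cyp2c65: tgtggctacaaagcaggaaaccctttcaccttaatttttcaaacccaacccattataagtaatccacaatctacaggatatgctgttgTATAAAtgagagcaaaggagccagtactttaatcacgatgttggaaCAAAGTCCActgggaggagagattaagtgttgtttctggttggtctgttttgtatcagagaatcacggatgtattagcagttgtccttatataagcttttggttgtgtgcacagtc
Searched on both strands, TATAAA stood in 24 of the 68 windows and in 12.4% of all 32851 windows of that length. CAAAGTCCA stood in 7 of 68 (Cyp2c65, Cyp2c67, Cyp2c68, Cyp2c70, Cyp3a11, Cyp3a16 and Cyp3a41b) and in 0.384% of all windows; these motifs do not overlap each other. A match describes the letters and does not show binding.

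Some members had higher levels in liver Trm than in the other sorted cells. Against Tem, 34 members were called higher, where 12% of all genes tested were, and none lower, where 23.6% were. At an unadjusted p under 0.05 limma gave 40 members higher and 0 lower. Of the 34, 12 were detected on at least 3 liver Trm arrays, against 5.5% of all genes by the same rule, and 9 were detected on none. The median difference was 1.30 for the members tested and −0.32 for all genes tested, and 9389 probes detected on no array shifted by a median of 0.93 in the same comparison. The 12 detected members alone are therefore described; each was called under all 22 alternatives.

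Cyp2d26 had levels of −3.37, −4.53, −0.61, −1.84 and −2.92 on the 5 liver Trm arrays. On the Tem arrays it ran from −8.82 through a median of −8.39 to −6.71 and was detected on 1 of 6. The groups did not overlap, and the difference was 5.42 (SE 0.51, adjusted p 9.5e-10). Cyp2e1 had levels of −4.88, −5.87, −0.80, −2.64 and −3.80 in liver Trm and was detected on no Tem array, at least 9.29-fold lower there (difference 5.14, SE 0.60, adjusted p 1.3e-07). Cyp2d10, a second member of the Cyp2d cluster, had levels of −4.53, −5.88, −1.41, −2.32 and −3.30, with none of the Tem arrays detected and a fold of at least 9.91. Cyp2a4 had levels of −4.88, −6.31, −2.42, −2.64 and −3.84, above every Tem array (−8.70 to −6.88). These members were lowest on liver Trm 2 and highest on liver Trm 3 or 5.

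Cyp2f2, the periportal member, was at −5.29, −6.88, −2.88, −1.83 and −3.82 in liver Trm, with liver Trm 2 below background (difference from Tem 4.97, SE 1.15, adjusted p 0.0024). The differences of the remaining 7 from Tem ran from 4.58 for Cyp2a12 to 1.12 for Cyp4f15, a leukotriene-oxidising member. Cyp4f15 was detected on 27 of 35 arrays, thus also outside liver. Its difference (SE 0.32) was near the 0.93 by which undetected probes shifted. Cyp4a10, a fatty acid hydroxylase that PPARA induces, differed by 4.44 (SE 0.59, adjusted p 1.5e-06) on the probe used. Further probes to Cyp4a10 averaged −6.86 and −7.80 in liver Trm, against −8.67 and −8.71 in Tem. Both gaps were smaller, and that of the last probe was near the shift of undetected probes. Cyp2c67, Cyp2c68 and Cyp2c70, of the large Cyp2c cluster, differed by 4.24, 3.51 and 3.19, each detected on liver Trm 3, 5 and 6 alone. Cyp2d40 differed by 1.92 (SE 0.39) and was detected on 2 Tem arrays as well. Of the textbook lists, all 8 pericentral members tested were called higher than in Tem, but Cyp2e1 was the 1 of them detected on at least 3 liver Trm arrays, and 3 were detected on none.

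The liver Trm arrays differed among themselves for P450 and hepatocyte genes alike. The median level of the 12 members was −5.33, −6.57, −2.65, −2.64 and −4.27 on arrays 1, 2, 3, 5 and 6. Alb, the main secreted protein of hepatocytes, was at −2.19, −2.63, 0.99, 0.58 and −0.56, and the T cell receptor chain Cd3e at −0.21, 0.24, −1.30, −1.50 and −0.37. Arrays 3 and 5 were highest for the P450 members and Alb and lowest for Cd3e, and array 2 was the reverse. Array 3 was the highest for 9 of the 12 and array 5 for the other 3, and array 2 was lowest for 10. The median level of all probes was −8.04, −8.30, −6.90, −7.86 and −7.74 on arrays 1, 2, 3, 5 and 6. It too was highest on array 3 and lowest on array 2. Of 22 hepatocyte markers, 18 were detected on at least 3 liver Trm arrays and 21 were called higher than in Tem (median difference 5.83). Their summed level was 1.56 to 4.70 in liver Trm, −3.60 to −3.09 in Tem and 4.88 to 5.03 in whole liver. Markers of liver endothelium and Kupffer cells, 6 of 11 detected on at least 3 arrays, had a summed level of −2.50 to −0.04 in liver Trm and −5.60 to −3.72 in Tem. The part of these cells in the P450 levels was not tested. In bulk samples, fewer cells of a type and less RNA per cell cannot be told apart.

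**Figure D2:**
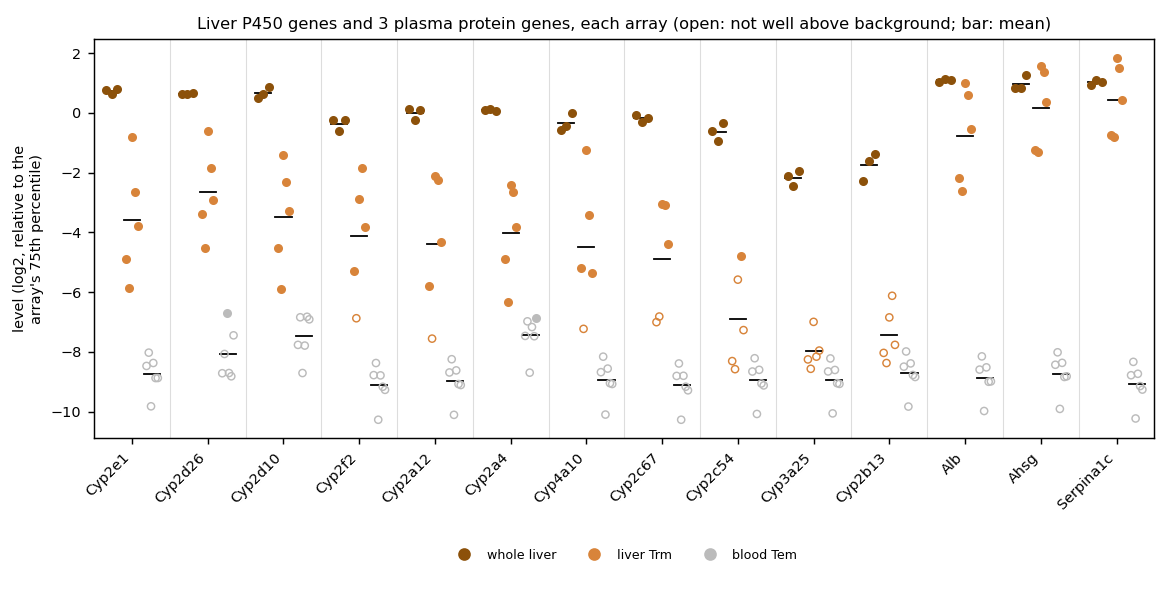
Levels (log2, relative to the 75th percentile of the array) of liver P450 members and of the plasma protein genes Alb, Ahsg and Serpina1c on each array of whole liver, liver Trm and Tem. Open points were not well above background and bars are means. The liver Trm levels of Cyp2d26 lie below those of whole liver and above those of Tem.

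Liver Trm was also set against the other Trm populations. Against lung Trm, 22 members were called higher in liver Trm, where 7.16% of all genes were, and none lower, where 5.64% were (34 and 1 at an unadjusted p under 0.05 in limma). Of the 22, 12 were detected on at least 3 liver Trm arrays (5.41% of all genes). Cyp2d26 was at least 16.9-fold higher (difference 5.32, SE 0.51) and Cyp2e1 at least 8.79-fold higher than in lung Trm. Cyp2d11 differed by 1.88 (SE 0.45, adjusted p 0.0053), with levels of −4.95, −4.87, −3.76, −3.64 and −5.04 in liver Trm against −7.10 to −5.39 in lung Trm. Cyp2f2 was not called between them. Against intestine Trm, 14 members were higher in liver Trm, where 2.12% of all genes were, and 1 lower, where 5.2% were; 10 of the 14 were detected on at least 3 arrays (1.66%). Of the 12 described against Tem, Cyp2c70 and Cyp4f15 were not called against intestine Trm. Cyp2d26 was at least 12.6-fold, Cyp2d10 at least 7.02-fold and Cyp2e1 at least 6.53-fold higher than in intestine Trm. These comparisons share the liver Trm arrays with the one against Tem.

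Whole liver lay above liver Trm for the members called. No member was called higher in liver Trm, where 8.59% of all genes were, and 40 were lower, where 23.8% were (1 and 42 at an unadjusted p under 0.05 in limma). All 40 were detected on at least 3 whole liver arrays. Sorted cells and whole organs were on different slides and scanned on different days, so slide and scan cannot be told apart from the sort in this and the next comparisons with whole organs. Cyp2c54, a pericentral member, differed by −6.27 (SE 0.57, adjusted p 3.5e-10), with liver Trm levels of −8.58 to −4.78 and whole liver levels of −0.62, −0.94 and −0.34. Its probe was detected on 4 arrays in all, among them every whole liver array, so this difference is largely a bound. Cyp3a25 was detected on no liver Trm array and was at least 12.9-fold lower. Cyp2b13, likewise not detected, was at least 17.3-fold lower. Cyp2e1 differed by −4.32 (SE 0.73) and Cyp2d26 by −3.30 (SE 0.62), and neither had a liver Trm array within its whole liver range. The smallest called differences were −1.32 for Cyp2j9 and −1.34 for Cyp4f13. All 8 pericentral members were lower, with a median difference of −4.62. Of the 8, 1 was detected on at least 3 liver Trm arrays, against 18 of the 22 hepatocyte markers. Most of the pericentral differences are therefore bounds, at least in part. Of the 22 hepatocyte markers, 14 were lower, with a median of −2.87; the mean difference of Alb was −1.86 (SE 0.78, adjusted p 0.0684), and that of Ahsg, a secreted glycoprotein, −0.82 (SE 0.61, adjusted p 0.346). The median over the members tested was −3.64, beside −0.33 for all genes tested.

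**Figure D3:**
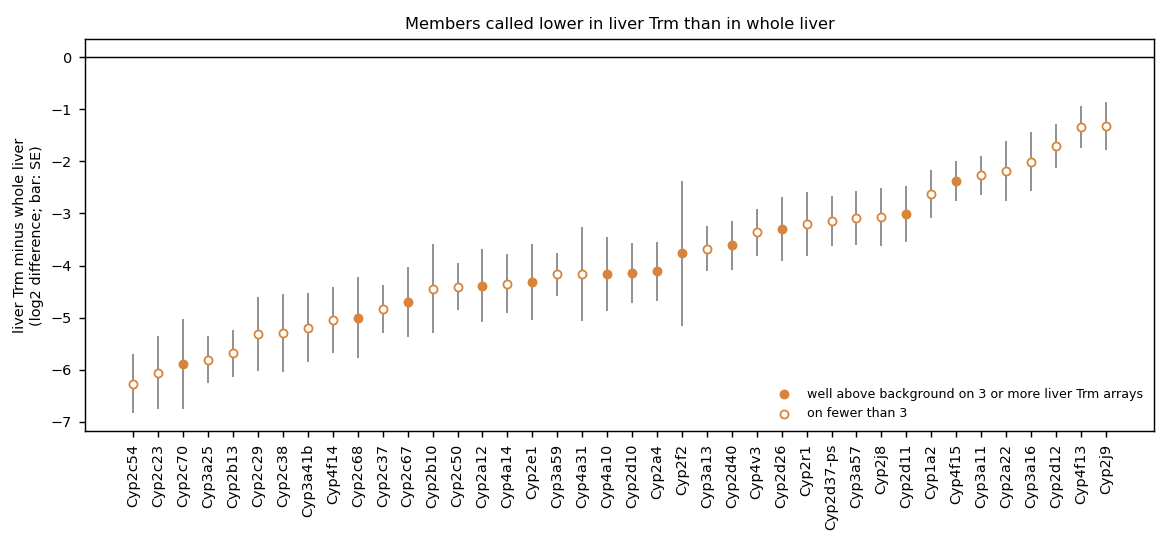
Difference between liver Trm and whole liver (log2, mean and SE) for the 40 members called lower in liver Trm; filled points were detected on at least 3 liver Trm arrays. All differences lie below 0, from −6.27 for Cyp2c54 to −1.32 for Cyp2j9.

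Lung Trm held the airway members on some arrays and not on others. Against Tem, 3 members were called higher, where 1.76% of all genes were, and none lower, where 1.04% were (4 and 0 at an unadjusted p under 0.05 in limma); 2 of the 3 were detected on at least 3 lung Trm arrays (1.74%). The 3 were Cyp2f2, Cyp4b1 and Cyp2b10, all of the textbook list of club cell members. Cyp2f2 was at 0.19, −2.75, −2.31 and −5.18 on lung Trm 1, 2, 3 and 5, and below background at −8.63 and −9.62 on arrays 4 and 6, so the lung Trm arrays reached from the range of whole lung to that of Tem. The difference from Tem was 4.39 (SE 1.1, adjusted p 0.0204), and it was not called without lung Trm 1, 2 or 3, with the sorted cells scaled on their own or with the groups compared alone. Cyp4b1 was detected on arrays 1, 2 and 5, at −2.81, −4.66 and −6.07. Its call (difference 2.52, SE 0.72, adjusted p 0.048) held under 6 of 23 alternatives. Cyp2b10 was detected on arrays 1 and 2 alone, at −2.38 and −3.70, and differed by 2.91 (SE 0.67, adjusted p 0.011).

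Scgb1a1, the secretoglobin that defines club cells, was at 1.15, 0.10, 0.29 and −1.69 on lung Trm 1, 2, 3 and 5 and not detected on arrays 4 and 6, the same arrays that lacked Cyp2f2. Markers of club and alveolar epithelium were detected on at least 3 lung Trm arrays for 9 of 13, with a summed level of −2.47 to 3.24 in lung Trm, −2.48 to −1.21 in Tem and 2.97 to 3.30 in whole lung. Their part in the lung Trm levels was not tested. Outside lung Trm, Scgb1a1 was detected on liver Trm 5 (−0.04) and intestine Trm 2 (0.80), where Cyp2f2 was at −1.83 and −3.27, the highest array of each group. Against whole lung, 9 members were lower in lung Trm (25.6% of all genes) and 1 higher (15.7%), with 7 of the 9 detected in whole lung on 3 arrays (25%). The differences were −5.17 for Cyp2b10 (SE 0.83), −4.91 for Cyp2f2 (SE 1.35), −4.83 for Cyp4b1 (SE 0.88) and −3.60 for Cyp2s1 (SE 0.65). Cyp4f13 was the member higher in lung Trm, by 1.04 (SE 0.39, adjusted p 0.0311), and was not detected on any whole lung array.

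Most members of the gut epithelium were not detected in intestine Trm. Of the 16 on the textbook list, 14 were detected on no intestine Trm array, Cyp3a11 on 1 and Cyp4v3 on 3. Against whole intestine, 27 members were lower (20% of all genes) and none higher (11.7%; 28 and 7 at an unadjusted p under 0.05 in limma), and 23 of the 27 were detected on all whole intestine arrays (19.1%). Cyp2d26 was at −8.71 to −7.48, with a median of −8.34, on the intestine Trm arrays and was at least 124-fold lower than in whole intestine (difference −8.85, SE 0.60, adjusted p 5.4e-14). Cyp4f14 was at least 96.9-fold lower, Cyp2b10 at least 77.4-fold, Cyp2c66 at least 34.9-fold and Cyp3a13 at least 33.9-fold, and all were detected on 0 of 6 intestine Trm arrays. Of 13 tested members of the textbook list for intestinal epithelium, 12 were lower (median −6.68, beside −0.01 for all genes tested). Gut epithelial markers were not all absent from intestine Trm: 5 of 16 enterocyte markers and 10 of 11 Paneth and goblet cell markers were detected on at least 3 arrays. The summed level of the enterocyte markers was −1.93 to 0.89 in intestine Trm, −4.79 to −3.10 in Tem and 3.89 to 5.22 in whole intestine. This sum was not particular to the gut: it was −2.25 to 1.83 in liver Trm and 1.05 to 1.56 in whole liver. In liver Trm, 3 of the 16 were detected on at least 3 arrays. Sis and Lct, brush border disaccharidases, were detected on no intestine Trm array.

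The difference between sorted cells and their organ was itself compared between organs, with 14.4% of all genes called for liver against intestine. Members were called in both directions, 9 with positive and 18 with negative values, where a positive value is a smaller gap in liver. Both counts include members detected in 1 of these whole organs alone, such as Cyp2c66 in intestine and Cyp2c70 in liver. Cyp2d26 is described because liver Trm detected it on every array: its difference from the whole organ was −3.30 in liver and −8.85 in intestine, and these differed by 5.55 (SE 0.86, adjusted p 9.8e-06). The intestinal value is a bound, since Cyp2d26 was below background in intestine Trm. For members below background in both Trm groups the gaps are bounds on both sides and have no order.

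Against Tem, intestine Trm had 1 member higher (5.86% of all genes) and 1 lower (6.42%). The higher was Cyp2t4, a member with few described substrates that was singled out after its values were seen. Cyp2t4 was detected on intestine Trm 1, 2 and 5, at −2.54, −4.43 and −3.36, and below background on the other 3 arrays, at −7.82, −6.24 and −6.72. On the Tem arrays it was not detected, so that it was at least 3.09-fold higher in intestine Trm (difference 2.86, SE 0.67, adjusted p 0.0037). In whole intestine its levels were −5.53, −5.66 and −5.48, inside the range of the intestine Trm arrays and below its 3 detected arrays. Against lung Trm, 1 member was higher in intestine Trm (5.53%), again Cyp2t4 with at least 2.92-fold, and 2 were lower (2.2%). Of these Cyp2s1 was detected on at least 3 lung Trm arrays (2.16%), and Cyp2b10 on 2. Cyp2t4 was also the member lower in liver Trm than in intestine Trm (difference −2.61, SE 0.70, adjusted p 0.0154), which was not called without intestine Trm 1 or 5 or with the groups compared alone.

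A few members were detected in several groups of sorted cells. Cyp2d11 was detected on 6 of 6 Tem arrays, from −6.20 through a median of −5.75 to −4.42, and on 5 of 6 lung Trm and 5 of 6 intestine Trm arrays. Cyp4v3, a fatty acid hydroxylase whose human counterpart is mutated in a crystalline dystrophy of the retina, was detected on 6 of 6 Tem arrays (−6.68, median −6.14, −5.99) and 6 of 6 lung Trm arrays (−6.94, median −5.79, −4.97). Cyp4v3 was detected on 3 of 6 intestine Trm arrays and on fewer than 3 of 5 liver Trm arrays. It was the one member detected on all PBMC arrays. Cyp4f18, which hydroxylates leukotriene B4 in neutrophils, was detected on 6 of 6 lung Trm arrays (−5.57, median −3.89, −3.10), 3 of 6 intestine Trm arrays (−7.61, median −5.91, −2.44) and 2 of 6 Tem arrays (−8.75, median −6.48, −5.90). In liver Trm, Cyp4f18 was detected on fewer than 3 of 5 arrays. The lung Trm range of Cyp4f18 lay above the Tem range, and the difference of 2.94 (SE 0.87) was not called (adjusted p 0.0599).

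Cyp2s1 was ordered among the sorted cells. It was detected on 6 of 6 lung Trm arrays (−6.41, median −5.50, −2.91), 4 of 6 Tem arrays (−7.97, median −5.53, −4.73), 2 of 5 liver Trm arrays and 0 of 6 intestine Trm arrays (−8.61, median −7.67, −6.61). Intestine Trm was below lung Trm by at least 2.06-fold (difference −2.44, SE 0.53, adjusted p 0.0032) and below Tem by at least 1.30-fold (difference −1.77, SE 0.53, adjusted p 0.0233); the second call held under 16 of 23 alternatives and was lost without intestine Trm 1 or 4 or Tem 1, 3 or 4. Lung Trm and Tem overlapped (difference 0.67, SE 0.53, adjusted p 0.665). Of 6 tested members of the leukocyte list, Cyp2s1 in intestine Trm was the 1 called against Tem over the Trm groups.

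Between Tem and whole PBMC, 2 members were higher in Tem (44.2% of all genes) and 3 lower (11.4%), none of the 3 detected on 3 PBMC arrays (8.3%). Cyp2d11 was at least 1.37-fold higher in Tem (difference 2.33, SE 0.52) and Cyp2s1 at least 1.05-fold (difference 2.00, SE 0.65). Cyp4f18 was lower in Tem (difference −3.70, SE 1.07, adjusted p 0.0038); its PBMC levels were −7.62, −0.94 and −1.42, with PBMC 1, the array with few detected probes, below background.

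**Figure D4:**
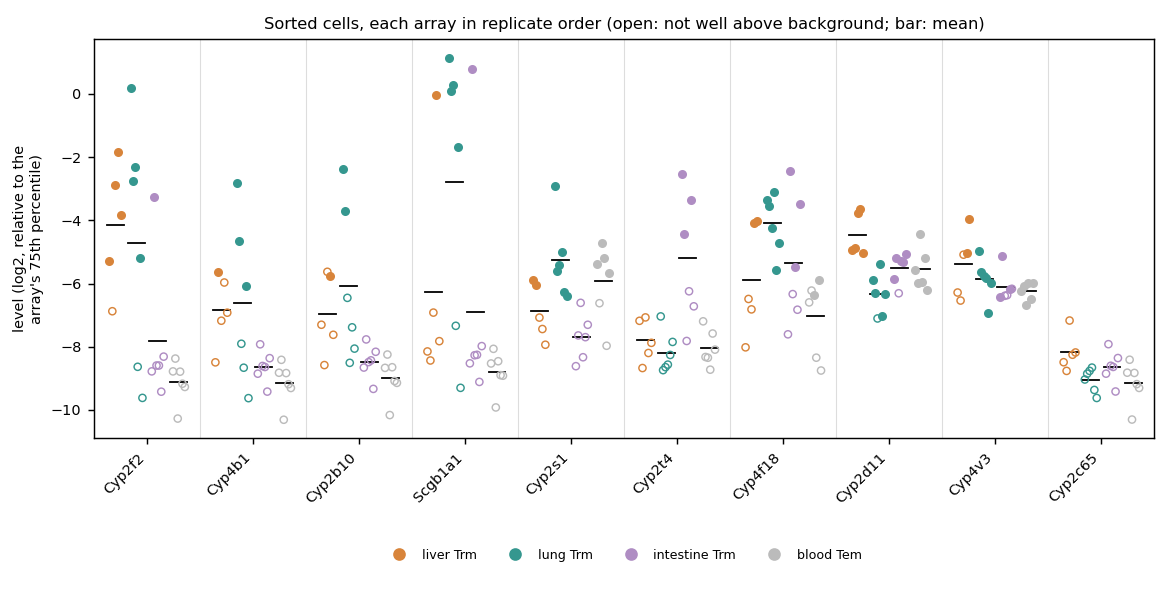
Levels (log2, relative to the 75th percentile of the array) in each sorted group of selected members, with Scgb1a1 for comparison. Open points were not well above background. Cyp2t4 is detected in intestine Trm alone, on 3 of 6 arrays, and Cyp2s1 is detected on all lung Trm arrays and no intestine Trm array.

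The members that the aryl hydrocarbon receptor induces were detected on 1 of the 23 sorted-cell arrays. Cyp1a1 and Cyp1b1 were detected on none of these, and Cyp1a1 on 1 array in all, whole lung 1 (−5.04). Cyp1a2, the caffeine-oxidising pericentral member, was at −4.61, −2.98 and −3.42 in whole liver, and among sorted cells was detected on liver Trm 5 alone (−5.74). The receptor itself, Ahr, was detected on 6 of 6 intestine Trm arrays, from −4.88 through a median of −3.17 to −2.41, and was 3.64 higher than in Tem (SE 0.58, adjusted p 3.5e-05). Its repressor Ahrr was detected on 1 of 6 of these arrays. The Cyp1a1 promoter is shown with GCGTG, the core of the element that the receptor binds, in capitals; it lies at chr9:57697363-57697612 on the plus strand of GRCm38.p6.
Cyp1a1: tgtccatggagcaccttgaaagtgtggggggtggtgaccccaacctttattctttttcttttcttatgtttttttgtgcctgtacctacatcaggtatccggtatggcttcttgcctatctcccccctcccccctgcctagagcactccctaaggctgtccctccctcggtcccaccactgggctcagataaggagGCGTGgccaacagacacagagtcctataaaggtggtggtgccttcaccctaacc
On both strands GCGTG stood in 13 of the 68 windows of members and in 28.2% of all windows.

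Genes that work with the P450 enzymes were counted in lists of textbook members. Por was detected on 6 of 6 Tem arrays and was not called between a Trm group and Tem (adjusted p 0.0738 in liver Trm, 0.98 in lung Trm and 0.368 in intestine Trm); its difference from the whole organ was −3.48 (SE 0.47) in liver Trm, −2.06 (SE 0.45) in lung Trm and −3.37 (SE 0.45) in intestine Trm. Of 18 redox partners and regulators tested, 7 were called higher in liver Trm than in Tem, 3 of them detected on at least 3 arrays, and 2 lower; 12 were lower and 1 higher than in whole liver. Of 12 genes of haem synthesis and breakdown, 3 were lower in liver Trm than in Tem, and 7 were lower than in whole liver. Of 23 conjugation and other drug metabolism enzymes, 18 were called higher in liver Trm than in Tem (median 1.45), 9 of them detected on at least 3 liver Trm arrays and 5 on none, 1 each in lung Trm and intestine Trm, and 19 were lower in liver Trm than in whole liver (median −3.70). Of 9 tested P450 genes of the other families, counted with Tbxas1 and Ptgis, 3 were called higher in liver Trm than in Tem and 4 lower than in whole liver. The background for these counts is that given for each comparison above.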

How the data were processed

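The study measured total RNA of 8 groups on 35 one-colour Agilent arrays. Scanner files deposited by the authors give a background-subtracted intensity per spot, made per the file headers with Feature Extraction 11.0.1.1; per the submitters' processing notes the tools were Agilent Feature Extraction 10.7 and Partek. They also deposited a table of log2 values, which lay within a median of 0.000465 of a quantile normalization of those intensities. From the intensities, log2 levels were scaled to the 75th percentile of the array over 1341 probes well above background on every array. Probes were named through RefSeq accessions (30.2% had no name here), and the probe of highest mean stood for its gene. A gene was tested where 3 or more arrays of some group had its probe well above background, with limma 3.58.1 in R 4.3.3, 8 group means, two-sided p-values and Benjamini-Hochberg adjustment over 10533 genes. The number of arrays limits the precision. The fit was tested on simulated data first.

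The members and lists were chosen with earlier results of these data known. Any member could be named; values on every array were given for at most the 8 called members of largest difference per direction among those detected on every array of the brighter group, and for members of the textbook lists. Alternatives were other scalings, background correction (normexp on the median signal and background, the columns at hand, with an offset of 50), filters, probe rules, arrays in the fit and each array left out. Replicate numbers were not used to pair arrays in the main fit. Over 42 pairs, deviations correlated from −0.32 to 0.42, and 7 were over 0.1, which cannot decide whether arrays of a number are paired. Promoters are RefSeq windows of GRCm38.p6. Cyp2a5, Cyp2c40, Cyp2c69, Cyp3a41a, Cyp2j7 and Cyp2j12 were not analysed here.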

Additional observations from a re-analysis of the deposited data

Results flagged for a closer look

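Single arrays stood apart from their group in 7 of 53 checks over 33 members, where chance alone gives about 1 in 20 (2.65). In Tem 3 the lowest levels of the group were −8.70 for Cyp2a4, −7.93 for Cyp2d40 and −7.64 for Cyp4f15, all below background. Cyp2d40 was also lowest on lung Trm 5, at −7.16, below background. Among the high arrays, Cyp2f2 was at −3.27 on intestine Trm 2, where the next array was at −8.31. Cyp4v3 was at −5.11 on the same array, with the next at −6.16. Cyp2c70, a liver member, was at −4.34 on intestine Trm 6, with the next at −7.67; it was detected on that array alone of its group.

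The difference between sorted cells and the whole organ was compared between organs by a limma contrast of the differences, adjusted over all genes. Between liver and intestine, 27 members were called (14.4% of all genes), 18 of them negative and 9 positive. These counts include members detected in 1 of these whole organs alone, such as Cyp2c66 in intestine and Cyp2c70 in liver. Among the 27, Cyp2d26 at 5.55, Cyp2b10 at 3.99 (SE 1.19, adjusted p 0.0184) and Cyp3a13 at 3.49 (SE 0.60, adjusted p 4.9e-05) were called lower than the whole organ in liver and in intestine. Cyp3a13 was below background in liver Trm and intestine Trm, and Cyp2b10 on all of these arrays but liver Trm 5, so the gaps of both are bounds and cannot be ordered. Between liver and lung the value for Cyp4v3 was −2.13 (SE 0.63, adjusted p 0.016). Cyp4v3 was detected on fewer than 3 of 5 liver Trm arrays, so its liver gap is in part a bound. Between intestine and lung it was −3.96 (SE 0.62, adjusted p 9.8e-06) for Cyp4v3 and −3.27 (SE 1.17, adjusted p 0.042) for Cyp2b10.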

How the results depend on the processing

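Counts of called members were recomputed under 274 combinations of comparison and alternative, and 247 stayed within 1.5 times the value reported. For named members, 1539 of 1576 recomputed differences kept their call, 37 lost it and 0 changed sign. The count of liver Trm against Tem (34) fell to 21 with quantile normalization and with the deposited values, 15 with the sorted cells scaled on their own and 17 without liver Trm 3, Tem 3, whole liver 2 and whole PBMC 1, chosen after seeing the data; the 12 detected members kept their calls. Leaving out 1 array gave 20 to 38, with 21 without liver Trm 3 and 20 without liver Trm 5. Lung Trm against Tem (3) gave 1 with the groups compared alone and with own scaling, and 1 to 3 with an array left out (1 without lung Trm 1 or 2). Intestine Trm against Tem (2) gave 1 with normexp and without the 4 arrays, and 1 to 2 with an array left out (1 without intestine Trm 1 or 4 or Tem 1, 3 or 4). Liver Trm against lung Trm (22) gave 12 with own scaling and 15 to 29 with an array left out; against intestine Trm (15) the range was 10 to 19. Intestine Trm against lung Trm (3) gave 5 with normexp (1 higher, 4 lower) and 2 to 5 with an array left out. Tem against PBMC (5) gave 14 with quantile normalization and with the deposited values (2 higher, 12 lower), 23 with the 75th percentile of all probes (1 higher, 22 lower), 8 with normexp (1 higher, 7 lower) and 2 to 6 with an array left out (2 without PBMC 3). Lung Trm against whole lung (10) gave 6 to 10, with 6 without whole lung 3. Intestine Trm against whole intestine ranged from 20 to 28 with an array left out; without the 4 arrays 8 members were called higher there in place of none. The cause of these changes was not tested.

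With the slide, which carries the replicate number, as a replicate block, the count for liver Trm against Tem was 29, for liver Trm against intestine Trm 12 and for liver Trm against whole liver 41, and no count moved by over 1.5 times. Members below background in sorted cells have bounds alone.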

Other observations

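Nr1i3, which encodes CAR, the receptor that induces Cyp2b10, was higher than in Tem in all Trm groups: by 2.76 in liver (SE 0.51, adjusted p 3.1e-04), 2.80 in lung (SE 0.49, adjusted p 4.5e-04) and 3.14 in intestine (SE 0.49, adjusted p 2.7e-05), from limma. It was detected on 2 of 5 liver Trm, 5 of 6 lung Trm and 5 of 6 intestine Trm arrays and on 0 of 6 Tem arrays. Its levels ran from −6.73 to −3.78 in intestine Trm and from −9.69 to −7.92 in Tem, without overlap. In whole liver, where the receptor is known to act, it ran from −5.0 to −3.73, and it was not detected in whole lung. Cyp2b10 itself was detected on 0 of 6 intestine Trm arrays. Nr1i3 was singled out after its values were seen, and these comparisons share the Tem arrays.

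Tbxas1, the family 5 gene that makes thromboxane A2, was detected on 4 of 6 lung Trm arrays, 3 of 6 intestine Trm arrays and 0 of 6 Tem arrays. Its levels ran from −7.41 to −5.23 in lung Trm and from −9.77 to −6.45 in Tem, which overlapped. Tiparp, a target of the aryl hydrocarbon receptor, was detected on 6 of 6 intestine Trm, 6 of 6 lung Trm and 6 of 6 Tem arrays.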
